A study of Homo sapiens with 10 samples.

Results

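The integrated stress response is the program by which a cell answers amino acid shortage, heme shortage, viral RNA or misfolded protein in the endoplasmic reticulum. Each of these inputs activates a kinase of the translation factor eIF2, which lowers translation in general and at the same time raises translation of ATF4, a basic leucine zipper transcription factor that activates the effectors of the response. In erythroid cells the heme-regulated kinase EIF2AK1 is the best known of these kinases, because it matches globin synthesis to the supply of heme. Here 10 effector genes of this program (ATF4, ATF3, ATF5, DDIT3, DDIT4, TRIB3, CHAC1, SESN2, PPP1R15A and CEBPB) were followed among the 10127 genes tested in RNA-seq data. The 10 genes were chosen by measured values, namely their TPM in libraries with an HS2 sgRNA against libraries with sgGal4, so that contrast is a description for them, and any call in it is given only beside the share of all genes called and supports nothing about the 10.

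K562 is an erythroleukemia cell line, and HS2 is the enhancer of the β-globin locus control region that was targeted with 4 sgRNAs (sgHS2) to study enhancer repression. The lines carried doxycycline-inducible dCas9 fusions with an mCherry marker together with the rtTA transactivator, the sgRNAs were delivered by lentivirus, and transduced cells were sorted as zsGreen1-positive populations before induction. The 5 groups of 2 libraries each were sgGal4, a nontargeting sgRNA, and sgHS2 with dCas9-KRAB (K), with dCas9-LSD1 (L), with enCRISPRi-LK, in which dCas9-LSD1 is joined by an MCP-KRAB fusion recruited to the sgRNA, or with enCRISPRi-KL, in which dCas9-KRAB is joined by MCP-LSD1. KRAB and LSD1 are repressive domains, and the labels of the 2 sgGal4 libraries do not name an effector.

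Levels are in TPM, the share of a gene among all transcripts of a library after correction for its length, which keeps no record of depth, so the depth behind each value is unknown. The study describes its RNA-seq means as taken over experiments. The labels do not say whether the 2 libraries of a group came from separate cultures, and p-values here measure the spread between these libraries only. In bulk RNA, fewer cells that carry a transcript and less of it per cell cannot be told apart.

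HBE1, the embryonic globin gene under HS2, was at 1376 and 1620 TPM in the sgGal4 libraries, against 695 and 759 TPM for K. It was at 1019 and 986 TPM in those labelled L, 557 and 458 TPM in those labelled LK, and 384 and 361 TPM in those labelled KL. All 8 sgHS2 libraries were thus below both sgGal4 libraries for HBE1, but not for every gene of the locus. HBD was at 41.1 and 39.1 TPM for K and 21.6 and 20.4 TPM for L, above its 19.4 and 18.5 TPM with sgGal4, and HBG1 at 132 and 132 TPM for K, above 118 and 99.4 TPM. KDM1A, which encodes LSD1, was at 105 and 84.2 TPM in the libraries labelled L, but at 27.4 and 30.6 TPM in those labelled LK and 26.8 and 26.6 TPM in those labelled KL, against 25.2 and 33.5 TPM with sgGal4. ZNF10, the gene whose KRAB domain is in common use, stood at 1.18 and 3.80 TPM under the label K but 128 and 136 TPM under the label L, with 36.8 and 31.5 TPM for LK, 365 and 359.9 TPM for KL, and 0.97 and 1.89 TPM with sgGal4. Because these levels do not follow the named constructs, groups are called here by their labels, and every direction between effectors below is one between labels.

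The cell type was checked against marker genes. All 16 listed K562 genes passed the filter on low values (mean TPM of 1 or more). Of 21 markers of T cells, B cells, monocytes, epithelium and fibroblasts, 9 to 13 were at 0 in a library, CD3E, CD2, CD79A, MS4A1, CSF1R and KRT5 among them in each library. The T cell marker CD3D was above 0 in all 10, at 26.1 and 33.6 TPM with sgGal4 and 1.65 to 21.3 TPM in the sgHS2 libraries. The most abundant marker was a keratin of simple epithelium, KRT18 (100.1 to 168 TPM) or KRT8 (126 TPM in K replicate 1). The epithelial markers KRT8 (62.2 to 161 TPM), KRT19 (26.4 to 69.7 TPM) and EPCAM (26.9 to 65.15 TPM) were above 0 in all 10 libraries too. The summed TPM of these markers was 362 and 487 in the sgGal4 libraries and 248 to 399 in the sgHS2 libraries, and its part in the results was not tested.

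The largest gaps from sgGal4 among the 10 genes were those of CHAC1 and DDIT4. DDIT4 (also known as REDD1) is a stress-induced inhibitor of the mTORC1 kinase that acts through the TSC complex. Its TPM was 146 and 195 with sgGal4, 25.4 and 22.2 in the libraries labelled K, 49.2 and 39.2 in those labelled L, 14.5 and 13.45 in those labelled LK, and 49.9 and 35.4 in those labelled KL. Every sgHS2 library lay below both sgGal4 libraries, and the mean of the LK libraries was 8.18% of the sgGal4 mean. In order of level, LK was lowest and K next without overlap, KL and L overlapped each other, and sgGal4 was highest. The log2 difference from sgGal4, on the log2(TPM + 1) scale, was -2.78 (K), -1.92 (L), -3.51 (LK) and -1.98 (KL), each with a standard error of 0.24.

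CHAC1 encodes an enzyme that breaks down glutathione. Its TPM was 16.7 and 26.8 with sgGal4, 1.81 and 1.83 with K, 2.43 and 4.77 with L, 1.19 and 1.68 with LK, and 6.33 and 3.70 with KL. The 8 sgHS2 libraries were all below both sgGal4 libraries, with LK lowest, K next, and L and KL overlapping. Its log2 difference from sgGal4 was -2.97 (K), -2.32 (L), -3.19 (LK) and -1.92 (KL), with a standard error of 0.42 each. At such low TPM the added pseudocount of 1 understates the change, and the LK mean was 6.60% of the sgGal4 mean.

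DDIT4 and CHAC1 each have 1 window in the RefSeq promoter table, from 250 bases before to 50 bases after the start of the transcript, and these are shown because both genes were low in all 8 libraries. The DDIT4 window is chr10:74033432-74033731 and the CHAC1 window chr15:41245419-41245718, both on the plus strand of GRCh37, on which the RefSeq sequences (GRCh38.p14) were placed by exact match. They were searched on both strands for TGATGNAA, the core shared by C/EBP-ATF response elements to which ATF4 binds, and for the cyclic AMP response element TGACGTCA, which reads the same on both strands. Capitals mark a match. CHAC1 has the first motif on the reverse strand as TTGCATCA, 209 bases before the start, and the DDIT4 window holds neither.
DDIT4: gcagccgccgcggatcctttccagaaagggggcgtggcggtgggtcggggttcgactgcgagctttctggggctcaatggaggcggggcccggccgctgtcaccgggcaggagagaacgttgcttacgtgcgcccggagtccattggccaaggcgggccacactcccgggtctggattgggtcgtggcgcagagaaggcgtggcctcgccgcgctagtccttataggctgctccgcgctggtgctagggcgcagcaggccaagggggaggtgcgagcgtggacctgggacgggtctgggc
CHAC1: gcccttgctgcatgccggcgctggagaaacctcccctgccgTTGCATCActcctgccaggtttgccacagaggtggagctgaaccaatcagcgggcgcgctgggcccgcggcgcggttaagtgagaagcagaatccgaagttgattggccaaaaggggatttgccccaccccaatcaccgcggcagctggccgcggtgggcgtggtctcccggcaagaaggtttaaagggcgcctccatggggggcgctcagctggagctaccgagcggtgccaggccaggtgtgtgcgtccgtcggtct
Both genes lie on the plus strand, DDIT4 from position 74033678 to 74035794 of chromosome 10 and CHAC1 from 41245160 to 41248710 of chromosome 15. These are the bounds of the Ensembl genes, in which CHAC1 starts before its whole RefSeq window. The distances to the start given above are those of the RefSeq transcripts.

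SESN2, a leucine-binding sestrin that restrains mTORC1 through GATOR2, was at 11.8 and 16.5 TPM with sgGal4. It was at 4.38 and 5.36 TPM with K, 5.01 and 6.39 TPM with L, 2.75 and 5.02 TPM with LK, and 7.04 and 6.74 TPM with KL. No sgHS2 library reached either sgGal4 library, and LK, K and L overlapped along the order of means. The log2 difference from sgGal4 lay between -1.65 (LK) and -0.92 (KL), with a standard error of 0.37.

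Among the transcription factors, ATF3 is a repressor and activator that ATF4 induces. Its TPM was 14.7 and 25.7 with sgGal4, 4.55 and 4.12 in the libraries labelled K, 7.02 and 7.88 in those labelled L, 5.24 and 3.95 in those labelled LK, and 5.33 and 4.48 in those labelled KL. K, LK and KL overlapped and L stood above them, still below both sgGal4 libraries. The log2 difference was -1.94 (K), -1.28 (L), -1.88 (LK) and -1.80 (KL), with a standard error of 0.36.

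DDIT3, the pro-apoptotic factor CHOP, was at 29.6 and 33.8 TPM with sgGal4, 13.8 and 18.2 TPM with K, 10.7 and 14.6 TPM with L, 14.2 and 11.4 TPM with LK, and 18.3 and 15.6 TPM with KL. The 4 sgHS2 groups overlapped as neighbours in the order of means, and all 8 libraries were below sgGal4, at log2 differences of -1.27 to -0.87 (standard error 0.28). TRIB3, a pseudokinase that ATF4 and DDIT3 induce and that feeds back on both, was at 18.9 and 25.3 TPM with sgGal4. Its TPM was 9.16 and 9.15 (K), 11.3 and 17.4 (L), 8.89 and 10.2 (LK), and 9.45 and 17.5 (KL), so that L and KL each had 1 library near the lower sgGal4 value. The log2 difference of TRIB3 lay between -1.17 (K) and -0.60 (L), with a standard error of 0.34.

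ATF4 itself differed less in its transcript. It was at 124 and 164 TPM with sgGal4, 120.1 and 115 TPM with K, 127 and 127 TPM with L, 86.4 and 94.4 TPM with LK, and 129 and 134 TPM with KL. Of the 8 sgHS2 libraries, 4 were below both sgGal4 libraries, namely those labelled K and LK, and the others lay between the 2 sgGal4 values. The log2 difference from sgGal4 was -0.66 in LK and between -0.28 and -0.12 in the other groups, with a standard error of 0.17. Without sgGal4 replicate 2 it was at 0.035 in L and 0.086 in KL. ATF4 protein, which is set largely by translation, was not measured here.

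CEBPB, a bZIP partner of ATF4, ranged from 9.63 to 17.5 TPM in the sgHS2 libraries against 16.0 and 25.6 TPM with sgGal4, and 5 of 8 libraries were below both. PPP1R15A (GADD34) is the phosphatase subunit that reverses eIF2 phosphorylation. It ranged from 21.9 to 31.8 TPM against 26.1 and 40.01 TPM with sgGal4, with 4 of 8 libraries below both and every neighbouring pair of groups overlapping. Without sgGal4 replicate 2 the log2 difference of PPP1R15A changed from -0.18 to 0.12 (K) and from -0.17 to 0.13 (L), and that of CEBPB from -0.25 to 0.070 (KL).

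ATF5, a bZIP factor that is also translated preferentially under stress, had the opposite direction. It was at 12.2 and 20.4 TPM with sgGal4, 24.4 and 31.0 TPM with K, 24.5 and 21.2 TPM with L, 14.7 and 19.2 TPM with LK, and 22.3 and 20.8 TPM with KL. The 6 libraries labelled K, L and KL were above both sgGal4 libraries, and the 2 labelled LK lay within their range. The log2 difference was 0.77 (K), 0.50 (L), 0.09 (LK) and 0.43 (KL), with a standard error of 0.29. The value in LK was below 0 without the mitochondrial genes (-0.032), without sgGal4 replicate 1 (-0.26) and without LK replicate 2 (-0.096).

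**Figure D1:**
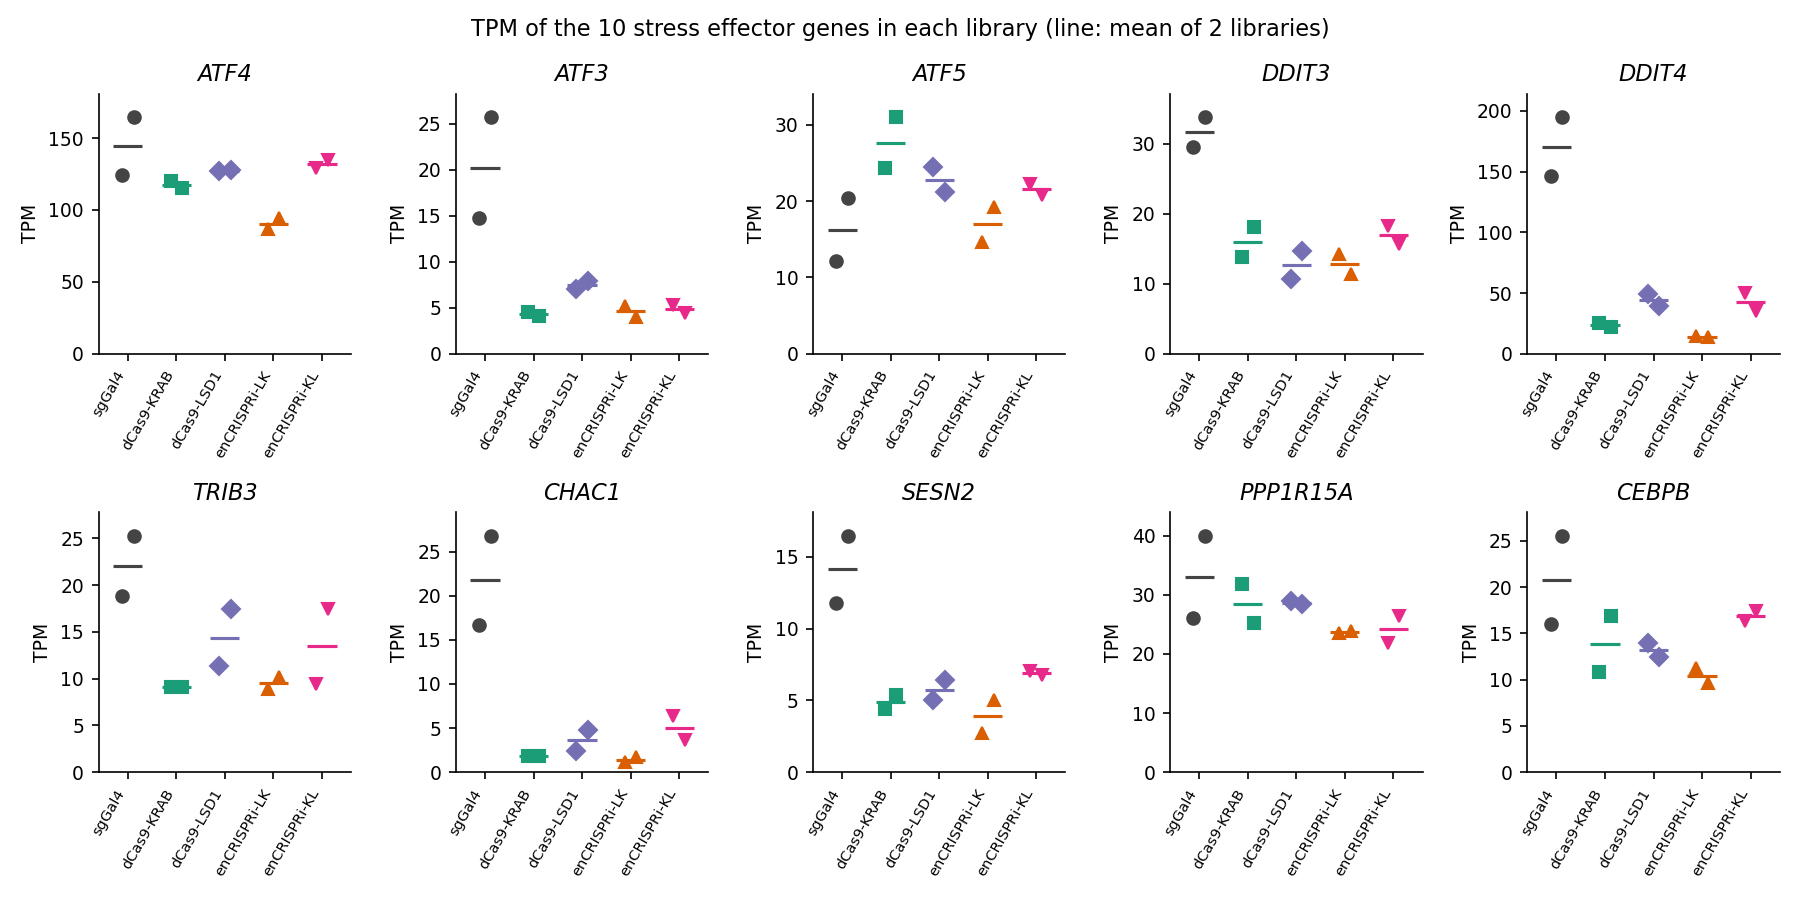
TPM (vertical axis, linear from 0) of each of the 10 genes in the 10 libraries, by labelled group on the horizontal axis; points are libraries and lines group means of 2. For ATF3, DDIT3, DDIT4, TRIB3, CHAC1 and SESN2 all 8 sgHS2 points lie below both sgGal4 points, while ATF5 is within or above the sgGal4 range.

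As a description of these TPM, the arrangement of the libraries was not the same for all 10 genes. In 6 of them (ATF3, DDIT3, DDIT4, TRIB3, CHAC1 and SESN2) all 8 sgHS2 libraries were below both sgGal4 libraries, an arrangement found in 5.29% of the 10127 genes tested, with the opposite one in 6.53%. Nothing is read from the 6, since this contrast chose the genes. All 10 genes passed the filter on low values.

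The sgGal4 libraries also differed from each other. All 10 genes were higher in sgGal4 replicate 2 than in replicate 1, by 1.14 to 1.75 times, and 74.5% of all genes tested were too. The 13 mitochondrially encoded genes took 53.6% of the listed TPM in sgGal4 replicate 1 and 43.7% in replicate 2, against 39.9% to 46.6% in the sgHS2 libraries. With these genes taken out and the libraries rescaled, 9 of the 10 genes were higher in replicate 2, as were 56.5% of the 10115 genes then tested. All 8 sgHS2 libraries were then below both sgGal4 libraries for 9 of the 10 genes, ATF4, CEBPB and PPP1R15A now included, and ATF5 was the exception with 0 of 8 below. The same arrangement was found in 9.13% of the 10115 genes, and the opposite one in 4.86%, so nothing is read from the 9 either.

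In limma with Benjamini-Hochberg adjustment over the 10127 genes, 3 of the 10 genes were called lower than sgGal4 in the libraries labelled K (0.741% of all genes tested were called lower), 2 in L (0.563%), 5 in LK (0.829%) and 3 in KL (0.731%). For the mean of the 4 sgHS2 groups, 5 were called lower (DDIT4, CHAC1, ATF3, DDIT3 and SESN2; 1.48% of all genes tested) and 0 higher (1.78%). Leaving out sgGal4 replicate 2, or either library of the group itself, left 1 or 2 of the 10 called in each group, and leaving out sgGal4 replicate 1 left 3 (K), 1 (L), 4 (LK) and 2 (KL). In KL, 2 were left without either K or either LK library, and in LK 3 without KL replicate 2. For the mean of the 4 groups, without sgGal4 replicate 1 the 5 became 3, and without sgGal4 replicate 2 they became 2, DDIT4 and CHAC1. These counts restate the choice of the genes and nothing is read from them. The 4 comparisons also share the same 2 sgGal4 libraries.

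**Figure D2:**
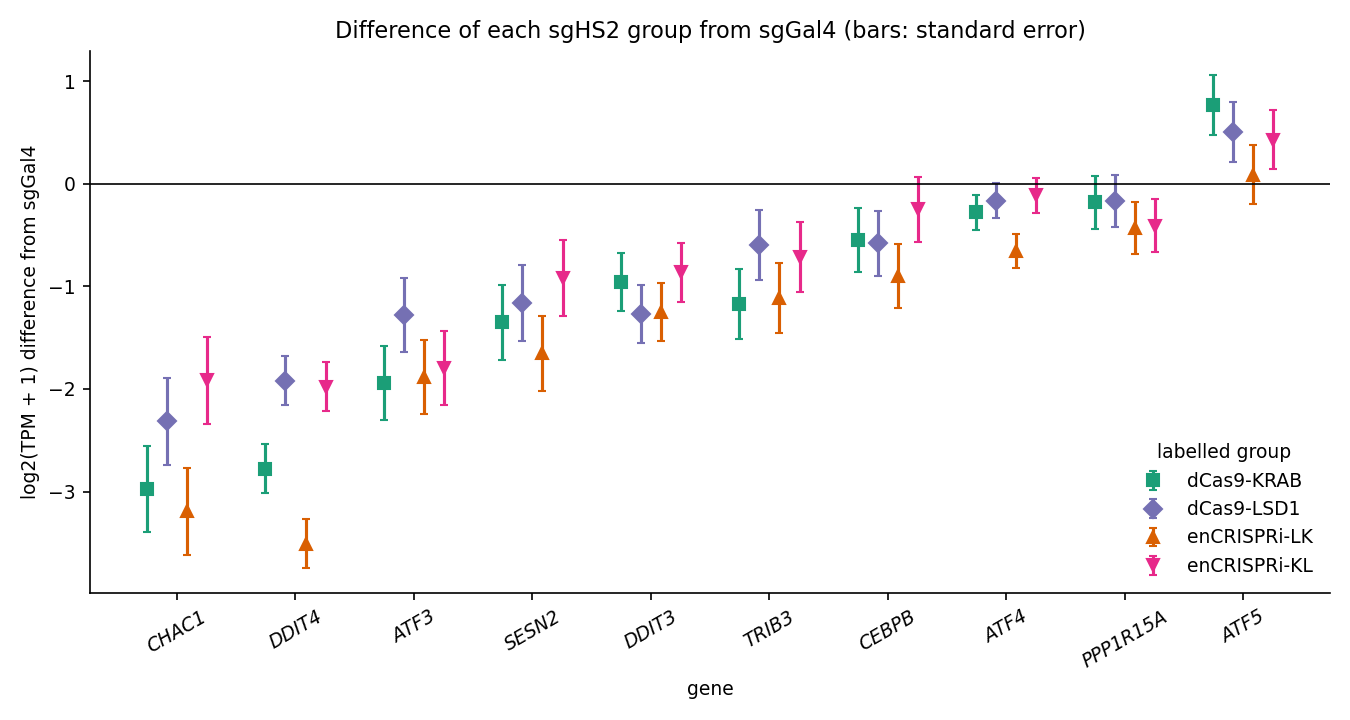
Difference of each labelled sgHS2 group from sgGal4 on the log2(TPM + 1) scale (vertical axis) for the 10 genes (horizontal axis, ordered by the mean of the 4 groups); points are fitted differences and bars their standard errors. CHAC1 and DDIT4 lie lowest, with LK at -3.19 and -3.51, and ATF5 is the 1 gene above 0, in LK by 0.09 with a standard error of 0.29.

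Differences among the sgHS2 groups do not use the sgGal4 levels. The genes were chosen by each sgHS2 group against sgGal4, however, so the same 8 sgHS2 libraries took part in the choice, and the p-values below come from the fit over all genes and are not tests independent of it. The estimate of variance came from all 10 libraries. DDIT4 was the 1 gene of the 10 under the threshold for any difference among the 4 sgHS2 groups (moderated F in limma, adjusted p = 0.0156; 0.336% of all genes tested were called), and 3 of the 10, ATF4, DDIT4 and CHAC1, had an unadjusted p under 0.05, as did 10.4% of all genes tested. Between the dual effectors, DDIT4 was lower in the libraries labelled LK than in those labelled KL, with a log2 difference of -1.53 (standard error 0.24, 95% interval -2.04 to -1.01, adjusted p = 0.0147), and it was the 1 gene of the 10 among the 0.385% of all genes called. Both LK libraries (14.5 and 13.45 TPM) were below both KL libraries (49.9 and 35.4 TPM). The listed markers of other cells also differed between these groups, with a summed TPM of 341 and 351 in LK and 248 and 259 in KL. The most abundant of them in each of these libraries was the keratin KRT18, at 116 and 140 TPM in LK and 100.1 and 105 TPM in KL. The part of these markers in the difference was not tested. The call rests on 2 libraries a side. It was lost when any of them was left out (adjusted p = 0.103 and 0.126 without LK replicate 1 and 2, 0.149 and 0.0528 without KL replicate 1 and 2), when no filter on low values was used (0.0638) and without a variance trend (0.0758), while the log2 difference stayed between -1.77 and -1.29 in all 16 alternatives. The F value lost its call without LK replicate 1 (0.0882), LK replicate 2 (0.104), KL replicate 1 (0.0592) or L replicate 1 (0.0553), and under the same 2 settings (0.0949 and 0.119).

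The other 9 genes had no call between LK and KL. For ATF4 the log2 difference was -0.54 (95% interval -0.90 to -0.18, adjusted p = 0.262), with both LK libraries below both KL libraries, and for CHAC1 it was -1.28 (-2.18 to -0.38, adjusted p = 0.304), with the same order. SESN2 had -0.73 (-1.52 to 0.06), CEBPB -0.65 (-1.32 to 0.02) and ATF3 -0.08 (-0.86 to 0.69). All 10 differences were below 0, against a median of -0.01 over all genes tested. Some of these signs rest on 1 library, as ATF3 was at 0.083 without LK replicate 2 and 0.020 without KL replicate 1, and without KL replicate 2 TRIB3 was at 0.012 and PPP1R15A at 0.11. The 10 genes share libraries and are not independent of each other.

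Between the single effectors, limma called 0 of the 10 genes (0.0395% of all genes tested), and 1, DDIT4, had an unadjusted p under 0.05, as did 8.34% of all genes. DDIT4 was at a log2 difference of -0.86 between K and L (95% interval -1.37 to -0.35, adjusted p = 0.368), with both K libraries below both L libraries. For dual against single effectors, 0 of the 10 were called (0.0889% of all genes tested), and DDIT4 was again the 1 with an unadjusted p under 0.05, against 7.45% of all genes (log2 difference -0.40, 95% interval -0.76 to -0.03, adjusted p = 0.647). The intervals of the other 9 genes in that comparison included 0, from -0.55 to 0.73 for CHAC1 and from -0.42 to 0.09 for ATF4. A change of that size in either direction was therefore not resolved with these libraries.

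**Figure D3:**
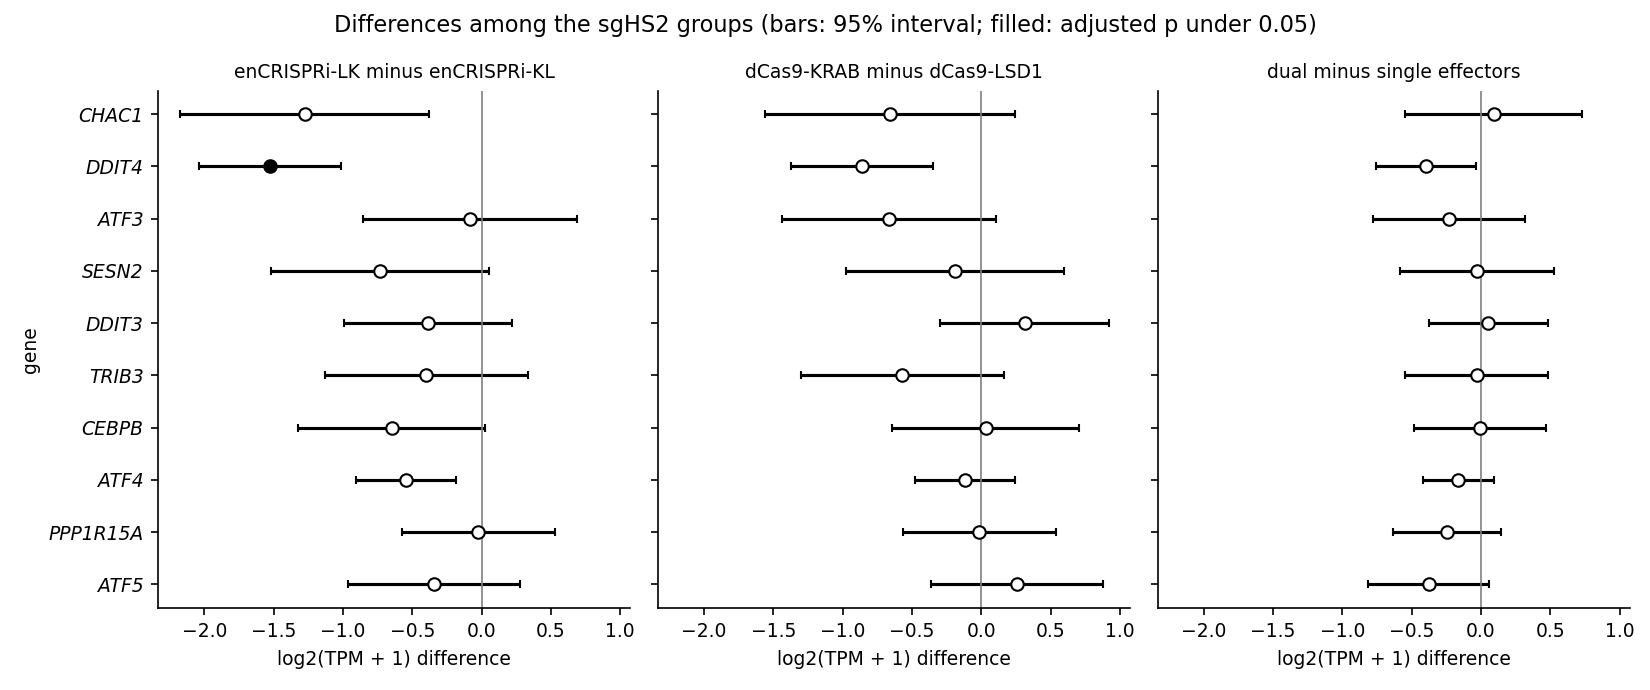
Differences among the labelled sgHS2 groups for the 10 genes on the log2(TPM + 1) scale (horizontal axes); points are fitted differences, bars 95% intervals, and a filled point has an adjusted p under 0.05. DDIT4 in enCRISPRi-LK minus enCRISPRi-KL, at -1.53, is the 1 filled point.

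The genes upstream of ATF4 and its wider targets were read from lists made by pathway. They were compared by setting the average of the 4 sgHS2 groups against sgGal4. The same libraries chose the 10 genes, so these counts are not separate evidence for the 10. The lists were chosen with earlier results of these data known, so their counts and calls describe these libraries and are not independent tests. The 4 lists of ATF4 targets held 59 tested genes outside the 10, of which 13 were lower (adjusted p under 0.05) and 0 higher, with 27 lower and 0 higher at an unadjusted p under 0.05. Of all genes tested, 1.48% were called lower and 1.78% higher, and 17.1% had an unadjusted p under 0.05 in either direction. The median log2 difference of the 59 was -0.43, against 0.03 over all genes tested. Each of the 2 other scalings gave 0 higher as well, with 17 lower after removal of the mitochondrial genes and 15 with median-of-ratios scaling. Over all genes the number called lower rose too, from 150 of 10127 to 268 of 10115 and 195 of 10119. There were 6 lower of 61 with no filter on low values and 8 without a variance trend. The 13 became 5 without sgGal4 replicate 1 and 5 without sgGal4 replicate 2, where the 27 became 15 and 3 were higher.

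Of 15 enzymes of amino acid and one-carbon metabolism, 3 fell and 0 rose (5 and 0 unadjusted; median -0.39), with 1 called without sgGal4 replicate 1 and 1 without replicate 2. ASNS, the asparagine synthetase that is a standard readout of ATF4, was at 74.8 and 79.9 TPM with sgGal4, against 19.4 to 46.4 TPM in the 8 sgHS2 libraries (log2 difference -1.31, standard error 0.18, adjusted p = 0.00156, and at most 0.0242 in the 16 alternatives). ALDH1L2, a mitochondrial folate enzyme, fell by 1.54 on the log2 scale (adjusted p = 0.0245), a call lost without sgGal4 replicate 1 (0.150) or 2 (0.156) and with no filter on low values (0.0839). The call of CTH, an enzyme of cysteine synthesis, was kept in only 4 of 16 alternatives (adjusted p = 0.0382, range 0.0189 to 0.372).

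Of 9 amino acid transporters, 2 fell and 0 rose (3 and 0 unadjusted; median -0.53), with 1 called without sgGal4 replicate 1 and 1 without replicate 2. SLC38A2, a carrier of neutral amino acids, was at 225 and 298 TPM with sgGal4 and at 91.7 to 132 TPM in the sgHS2 libraries (log2 difference -1.30, standard error 0.15, adjusted p = 0.000368, at most 0.0218 in the 16 alternatives). SLC7A11, the cystine carrier, fell by 1.67 on the log2 scale (adjusted p = 0.00959), a call lost without sgGal4 replicate 1 (0.0736) or 2 (0.103). Of 13 genes of cytosolic tRNA synthetases and tRNA export, 1, AARS, fell and 0 rose, with 8 lower at an unadjusted p under 0.05 (median -0.30). The call of AARS (log2 difference -0.67, adjusted p = 0.0432) was kept in 4 of 16 alternatives (range 0.0183 to 0.281).

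Of 22 other targets of the response, 7 fell and 0 rose (11 and 0 unadjusted; median -0.59), with 3 called without sgGal4 replicate 1 and 3 without replicate 2. VEGFA, the angiogenic growth factor, was at 81.4 and 83.5 TPM with sgGal4 and 24.6 to 54.7 TPM in the sgHS2 libraries (log2 difference -1.23, standard error 0.16, adjusted p = 0.000815, at most 0.0159 in the alternatives). GDF15, a secreted stress hormone, was at 51.5 and 74.3 TPM against 11.2 to 24.7 TPM (log2 difference -1.63, standard error 0.23, adjusted p = 0.00141, at most 0.0274). KLHL24 fell by 1.98 on the log2 scale (adjusted p = 0.00983), a call lost without sgGal4 replicate 2 (0.135) and with no filter on low values (0.0709). GADD45A fell by 0.87 (adjusted p = 0.0124), a call lost without sgGal4 replicate 1 (0.141) and without a variance trend (0.0885). The other 3 called had higher adjusted p-values. BBC3, the pro-apoptotic factor PUMA, fell by 1.80 (adjusted p = 0.0132) and lost its call without sgGal4 replicate 1 (0.0953) or 2 (0.127) and with no filter (0.0682). HERPUD1, of the degradation machinery of the endoplasmic reticulum, fell by 1.03 (adjusted p = 0.0252) and lost it without sgGal4 replicate 1 (0.150) or 2 (0.148), with no filter (0.0856) and without a variance trend (0.104). The call of the autophagy gene MAP1LC3B (log2 difference -0.57, adjusted p = 0.0471) was kept in 2 of 16 alternatives (range 0.0118 to 0.212).

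**Figure D4:**
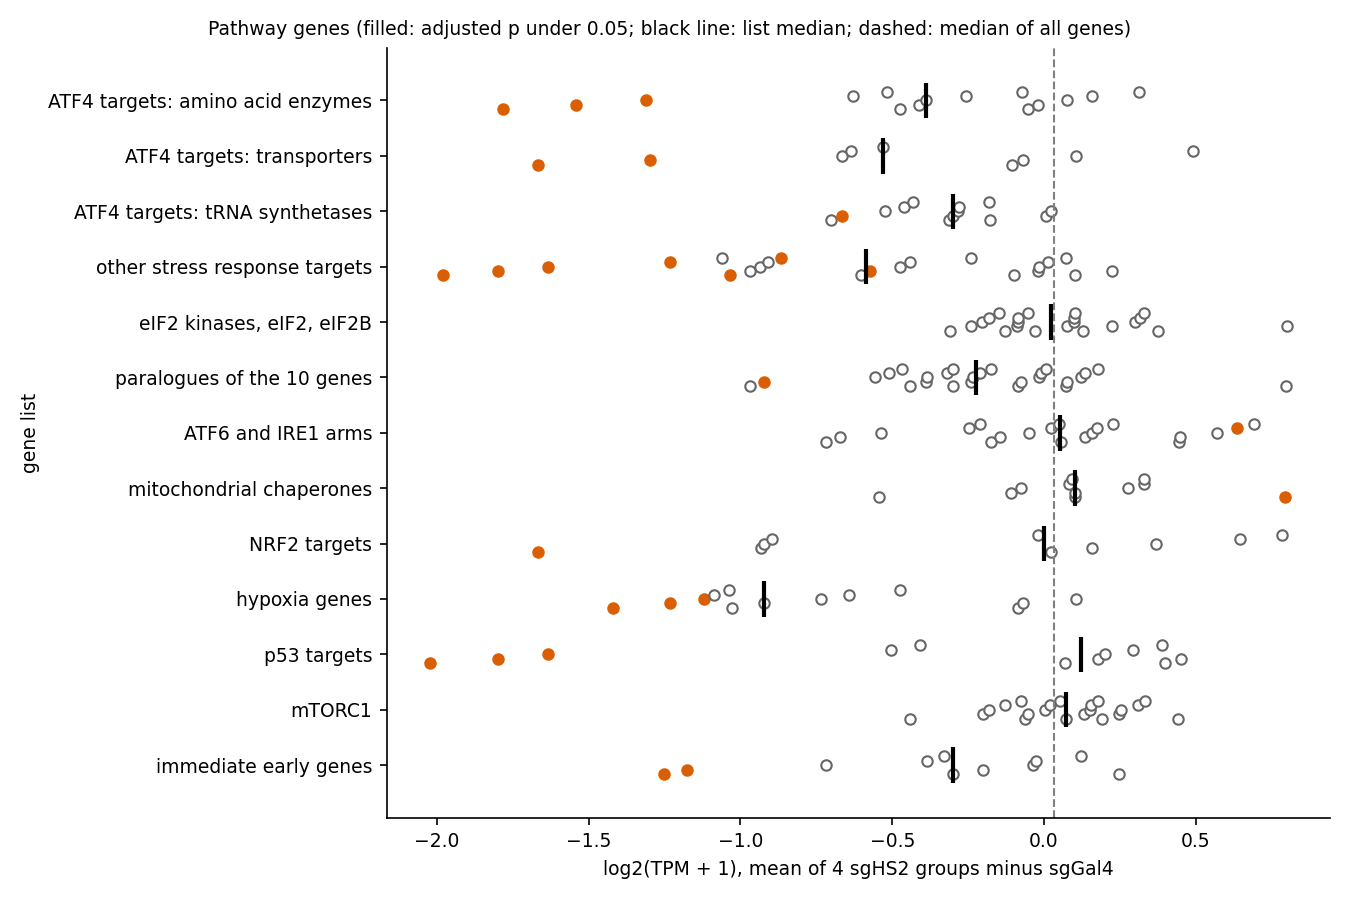
Log2(TPM + 1) difference of the mean of the 4 sgHS2 groups from sgGal4 (horizontal axis) for the genes of 13 lists (vertical axis); filled points have an adjusted p under 0.05, black lines are list medians, and the dashed line is the median of all genes tested (0.03). The filled points of the 4 lists of ATF4 targets all lie below 0, and the eIF2 and mTORC1 lists have none.

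Upstream of ATF4, a list of 22 genes held the eIF2 kinases, eIF2, its exchange factor eIF2B and phosphatase subunits. It also held IMPACT, GCN1L1, KIAA0141, OMA1, NCK1 and DNAJC3. Of these 22 genes limma called 0, also 0 at an unadjusted p under 0.05, and their median was 0.02. Of 21 genes of mTORC1 and its regulators other than the 10, 0 were called and 0 had an unadjusted p under 0.05 (median 0.07). Among 26 tested paralogues of the 10 genes, 1, JUND, fell and 0 rose (median -0.22). JUND, a subunit of AP-1, had a log2 difference of -0.92 (adjusted p = 0.0246), a call lost without sgGal4 replicate 2 (0.261) or LK replicate 2 (0.0528), with no filter on low values (0.0951) and without a variance trend (0.131). CEBPG, the dimer partner of ATF4, was at 11.1 and 12.9 TPM with sgGal4 and 3.65 to 9.48 TPM in the sgHS2 libraries (log2 difference -0.97, adjusted p = 0.0789, range 0.0386 to 0.301), and it was called lower under both other scalings.

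The other arms of the unfolded protein response were read from a list of chaperones and sensors. Of 20 genes of the ATF6 and IRE1 arms, 1, the chaperone CALR, rose and 0 fell in limma, with 5 higher and 2 lower at an unadjusted p under 0.05 (median 0.05; 1.78% of all genes tested were called higher). CALR was at 210.1 and 305 TPM with sgGal4 and 340 to 465 TPM in the sgHS2 libraries (log2 difference 0.63, adjusted p = 0.0150), a call lost without sgGal4 replicate 1 (0.188), with no filter on low values (0.0722) and without a variance trend (0.178). Of 11 mitochondrial chaperones and proteases, 1, HSPE1, rose (log2 difference 0.79, adjusted p = 0.00148, lost only without a variance trend, at 0.0795) and 0 fell, with 2 higher and 1 lower unadjusted (median 0.10).

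Lists of other stress pathways overlap those above, since VEGFA is also on the hypoxia list, GDF15 and BBC3 on the p53 list and SLC7A11 on the NRF2 list. Of 13 hypoxia genes, 3 fell and 0 rose (9 and 0 unadjusted; median -0.92), with 1 called without sgGal4 replicate 1 and 1 without replicate 2. The call of NDRG1 (log2 difference -1.42, adjusted p = 0.0419) was kept in 3 of 16 alternatives (range 0.0260 to 0.297). The third gene was BNIP3L, a mitophagy receptor, with a log2 difference of -1.12 (adjusted p = 0.0126, and 0.109 without sgGal4 replicate 1, 0.0855 without replicate 2, 0.0550 without a variance trend). Of 12 p53 targets, 3 fell and 0 rose (3 lower and 2 higher unadjusted), with 1 called without sgGal4 replicate 1 and 1 without replicate 2, although the list's median was 0.12. CDKN1A, the cell cycle inhibitor p21, was at 8.52 and 10.9 TPM with sgGal4 and 0.60 to 3.57 TPM in the sgHS2 libraries (log2 difference -2.02, adjusted p = 0.00568, and 0.0666 and 0.0724 without sgGal4 replicate 1 and 2). Of 10 NRF2 targets, 1 fell, SLC7A11, and 0 rose (3 lower and 2 higher unadjusted; median 0.00), and limma called 0 without sgGal4 replicate 1 and 0 without replicate 2. Of 11 immediate early genes, 2 fell and 0 rose (median -0.30), with EGR1 at a log2 difference of -1.18 (adjusted p = 0.000916, at most 0.0175 in the alternatives). The call of KLF6 (-1.25, adjusted p = 0.0391) was lost without any 1 library other than sgGal4 replicate 1 (0.0515 to 0.364), with no filter on low values (0.110) and without a variance trend (0.0749).

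Among the sgHS2 groups themselves, the target lists were read again, in differences that do not use the sgGal4 levels. For dual against single effectors the medians were -0.06 (amino acid enzymes), -0.04 (transporters), -0.08 (tRNA synthetase genes) and -0.06 (other targets), against 0.01 over all genes tested. For K against L they were -0.25, -0.02, -0.29 and -0.18 in the same order, against 0.06. In both comparisons limma called 0 genes of these lists. Between LK and KL, 15 of 15 amino acid enzymes, 8 of 9 transporters and 10 of 13 tRNA synthetase genes had a difference below 0, with medians of -0.37, -0.61 and -0.28 against -0.01 over all genes tested. In each of these 3 lists limma called 0 genes, with 5, 2 and 4 lower at an unadjusted p under 0.05, as against 9.84% of all genes in either direction. Of the 22 other targets, 17 were below 0 (median -0.35), with 7 lower and 1 higher unadjusted. The signs in these 4 lists rest on 2 libraries a side, and genes that share libraries are not independent of each other. Of the 9 tested markers of other cells 8 were above 0 between LK and KL (median 0.38), with limma calling 0, and 3 higher and 0 lower unadjusted, and their part in these differences was not tested. Of the 13 hypoxia genes 5 were below 0, with a median of 0.10 and 2 lower unadjusted. Of 12 p53 targets 10 were below 0 (median -0.12), with 1 lower unadjusted, and of 10 NRF2 targets 6 were (median -0.24), with 0. Of 11 immediate early genes 4 were below 0 (median 0.31), with 1 lower and 1 higher unadjusted. VEGFA, which is on the lists of other targets and of hypoxia genes, was the 1 gene of either that was called (log2 difference -1.003, adjusted p = 0.0485, kept in 2 of 16 alternatives, range 0.0280 to 0.363).

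The sequence motifs were also counted over promoters. The core TGATGNAA, on either strand, occurred in windows of 2 of the 10 genes (ATF3 and CHAC1), in 5 of 10 amino acid enzymes with a window, 4 of 8 transporters, 6 of 9 tRNA synthetase genes, 3 of 17 other targets and 0 of 18 genes of the ATF6 and IRE1 arms. The share among the 8309 tested genes with a window was 2.47%, and 4.46% among all 27270 genes with one. The element TGACGTCA occurred in 1 of the 10, PPP1R15A, and in 4.27% of the tested genes. All 10 genes had a window, 18 in all.

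Stretches of 30 bases around the core are shown for ATF3, which was low in all 8 libraries, and for the targets ASNS, AARS and CEBPG, with the core in capitals and each read 5′ to 3′ on the strand of its gene, where AARS holds it in reverse as TTGCATCA. The genes were picked after their values were seen. They lie at chr1:212738547-212738576 (plus strand), chr7:97501770-97501799 (minus), chr16:70323578-70323607 (minus) and chr19:33864966-33864995 (plus) of GRCh37, from RefSeq (GRCh38.p14). The core starts 191, 68, 187 and 42 bases before the start of the transcript. The second, downstream start of ATF3 has a window without it.
ATF3: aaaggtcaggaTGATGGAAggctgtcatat
ASNS: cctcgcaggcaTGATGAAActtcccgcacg
AARS: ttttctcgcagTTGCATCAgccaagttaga
CEBPG: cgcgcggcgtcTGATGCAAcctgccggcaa
Of the 205 tested genes with the core, 9 were called lower (4.39%) and 2 higher in the mean of the sgHS2 groups. Of the 8309, 116 were called lower (1.40%) and 147 higher. Leaving out the 10 genes and the listed targets, 4 of 185 were called lower (2.16%) and 2 higher. The median log2 difference was -0.07 for the 205 and -0.04 for the 185, against 0.035 for the 8309. A match is a description of the letters and does not show that a factor binds there.

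PPP1R15A, with group means from 71.7% (LK) to 86.7% (L) of the sgGal4 mean, is the 1 gene of the 10 with the cyclic AMP response element. Its window is chr19:49375428-49375727 on the plus strand of GRCh37, and the element, in capitals, starts 58 bases before the start of the transcript.
PPP1R15A: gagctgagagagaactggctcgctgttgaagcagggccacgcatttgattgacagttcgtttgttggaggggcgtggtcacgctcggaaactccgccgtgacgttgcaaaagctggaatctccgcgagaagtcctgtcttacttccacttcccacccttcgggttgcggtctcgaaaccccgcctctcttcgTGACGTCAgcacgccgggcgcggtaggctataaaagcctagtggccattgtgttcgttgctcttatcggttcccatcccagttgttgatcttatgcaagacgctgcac

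Over the 8 sgHS2 libraries, the genes outside the 10 whose log2(TPM + 1) most resembled the mean standardised level of the 10 genes were FAM154B (Pearson r = 0.97), UROS (0.95), CTCFL (0.94), FAM132B (0.94), ZNF76 (0.94), CAMTA2 (0.94), IARS (0.92), ARRDC2 (0.92), TRMT10B (0.92) and TRIM44 (0.92). These are the highest values among all genes tested other than the 10, in 8 libraries of 4 groups, which share their group, and no p is given. The mean standardised level was lowest in the LK libraries (-1.06 and -0.89) and highest in L replicate 2 (0.67). Within the 10, the correlation with that mean was 0.96 for ATF4, 0.90 for DDIT4, 0.83 for SESN2 and 0.82 for CHAC1. It was 0.71 for CEBPB, 0.60 for TRIB3, 0.56 for ATF5, 0.46 for ATF3, 0.39 for DDIT3 and 0.29 for PPP1R15A. Each gene is part of the mean.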

How the data were processed

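RNA-seq libraries of K562 cells were aligned by the authors to hg19 with STAR 2.5.2b, keeping reads with a single location, and RSEM gave the deposited unit, TPM. Depth is unknown, so no counting intervals are given. TPM were used as log2(TPM + 1), for 10127 genes whose average over the 10 libraries was 1 TPM or more. A single fit of 5 groups in limma 3.58.1 (R 4.3.3; moderated with a mean-variance trend, 5 residual degrees of freedom) gave all contrasts, with two-sided p-values adjusted by Benjamini-Hochberg over all genes tested and called under 0.05. DESeq2, which needs counts, was not used. Errors are standard errors of that fit. Groups and replicate numbers came from the labels.

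The 10 genes and the pathway lists were chosen with earlier results of these data known. Genes named from each list were at most 4, those with the smallest p for the average sgHS2 group against sgGal4, and exceptions (the 7 called among the other targets, and the promoters shown) were chosen after their values were seen. Genes most like the 10 were ranked by Pearson r over the 8 sgHS2 libraries. Alternatives were a pseudocount of 0.1, no filter, removal of the mitochondrial genes with rescaling, median-of-ratios scaling, no variance trend, the replicate number as a block, and each library left out in turn, where a lone library was assumed to vary like the other groups. Figures were drawn with matplotlib 3.10.9.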

Additional observations from a re-analysis of the deposited data

Results flagged for a closer look

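These genes had a difference between groups that carried an sgHS2 guide (limma, adjusted p; the estimate of variance came from all 10 libraries, sgGal4 included). DDIT4 is 1 of the 10 genes, which were chosen with these libraries, so its values are not independent of that choice. DDIT4 differed between LK and KL (log2 difference -1.53, adjusted p = 0.0147) and among the 4 groups (adjusted p = 0.0156), each call kept in 10 of 16 alternatives (ranges 0.00983 to 0.149 and 0.00961 to 0.119), and VEGFA between LK and KL (-1.003, adjusted p = 0.0485, kept in 2 of 16, range 0.0280 to 0.363).

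Genes used to check the labels differed as well. ZNF10 had a log2 difference of 2.44 between dual and single effectors (adjusted p = 0.000237), -3.37 between LK and KL (adjusted p = 0.000321) and -5.36 between K and L (adjusted p = 1.54e-06), and differed among the 4 groups (adjusted p = 4.01e-07), each call kept in all 16 alternatives. KDM1A had -1.69 between K and L (adjusted p = 0.00677), kept in 11 of 16 alternatives (range 0.00254 to 0.173) and lost without K replicate 1 (0.103), K replicate 2 (0.145) or L replicate 1 (0.167), with no filter on low values (0.0583) and without a variance trend (0.173). It differed among the 4 groups (adjusted p = 0.00391), a call lost without L replicate 1 (0.0928) and without a variance trend (0.0560).

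Globin genes differed in several contrasts. HBE1 had a log2 difference of -0.97 between dual and single effectors (adjusted p = 0.000237) and differed among the 4 groups (adjusted p = 0.000510), both calls lost only without a variance trend (0.109 and 0.119). HBG2 had -0.97 between dual and single effectors (adjusted p = 0.00174) and differed among the 4 groups (adjusted p = 0.00207), calls lost with no filter on low values (0.0734 and 0.0533) and without a variance trend (0.151 and 0.149). Its call between LK and KL (0.80, adjusted p = 0.0485) was kept in 2 of 16 alternatives (range 0.0150 to 0.428), and lost under both other scalings (0.0942 without the mitochondrial genes and 0.131 with median-of-ratios) and without any 1 sgHS2 library (0.0602 to 0.428). HBG1 had -1.01 between dual and single effectors (adjusted p = 0.0105, kept in 9 of 16, range 0.00582 to 0.143) and differed among the 4 groups (adjusted p = 0.0143, kept in 11 of 16, range 0.0173 to 0.162).

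HBZ had -0.63 between dual and single effectors (adjusted p = 0.0372, kept in 6 of 16, range 0.00345 to 0.353), lost among others with median-of-ratios scaling (0.121), and -0.93 between LK and KL (adjusted p = 0.0131, kept in 9 of 16, range 0.00314 to 0.240), lost with that scaling (0.0538) and without any 1 LK or KL library (0.0755 to 0.184). It differed among the 4 groups (adjusted p = 0.00154, kept in 14 of 16, range 0.000281 to 0.160). The mitochondrial gene MT-ND6 had -0.51 between LK and KL (adjusted p = 0.0308, kept in 5 of 15 alternatives, range 0.00349 to 0.511) and differed among the 4 groups (adjusted p = 0.0103, kept in 9 of 15, range 0.000304 to 0.437). With median-of-ratios scaling these were 0.293 and 0.235, and the first was lost without any 1 LK or KL library (0.186 to 0.334).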

How the results depend on the processing

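Of 800 differences of the 10 genes from sgGal4 under the 16 alternatives, 744 moved by less than the spread between replicates and 56 by more. Of 480 differences among sgHS2 groups, 450 kept their direction and their side of the threshold, 6 lost their call and 24, none of them called, changed sign. Of 272 list counts, 63 moved by over 1.5 times. Depth is unknown, and the cause of these changes was not tested.

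Without a filter (14466 genes tested), the genes called against sgGal4 were 51 (K), 37 (L), 61 (LK), 83 (KL) and 185 (mean of 4), against 164, 88, 203, 138 and 330 with it; 4 were called for dual against single effectors, 20 for LK against KL and 2 for K against L, against 9, 39 and 4. Of the 10 genes, 1 (L), 2 (LK), 1 (KL), 0 (LK against KL) and 0 (among the 4 groups) were called by limma, against 2, 5, 3, 1 and 1. Without a variance trend the counts of genes were 14, 22, 15, 75, 99, 4, 17 and 1 in the same order of comparisons, and 8 among the 4 groups (34 with the trend), with 2 (LK), 0 (LK against KL) and 0 (among the 4 groups) of the 10. A pseudocount of 0.1 gave 5 genes for dual against single effectors.

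With the mitochondrial genes removed, L had 140 genes called (88 otherwise). The mean of the 4 groups then had 147 higher and 268 lower, and with median-of-ratios scaling 179 higher and 195 lower, against 180 and 150. The removal moved the median of all genes from 0.06 to -0.06 (K) and from 0.03 to -0.09 (LK). CEBPB between K and L was 0.032, and -0.035 and -0.019 under these scalings. With the replicate block, 256 genes were called for the mean of 4 groups and 34 for LK against KL, although the numbers did not pair libraries (correlation of replicate differences across genes -0.021 to 0.023).

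Leaving out 1 library gave 9 to 231 genes called for K, 16 to 138 for L, 20 to 209 for LK, 49 to 167 for KL, 90 to 274 for their mean, 3 to 15 for dual against single effectors, 3 to 39 for LK against KL, 2 to 5 for K against L and 10 to 35 among the 4 groups. Of the 10 genes it gave 1 to 3 (K), 1 to 2 (L), 2 to 5 (LK), 1 to 3 (KL), 2 to 5 (mean), 0 to 1 (LK against KL), 0 to 1 (among the 4 groups), and 0 for the other comparisons, where 1 each had an unadjusted p under 0.05 with all libraries. For dual against single effectors, the log2 difference ranged from -0.050 to 0.16 (DDIT3), -0.24 to 0.17 (TRIB3), -0.097 to 0.28 (CHAC1), -0.20 to 0.14 (SESN2) and -0.16 to 0.14 (CEBPB). For LK against KL it ranged from -0.25 to 0.083 (ATF3), -0.81 to 0.012 (TRIB3) and -0.15 to 0.11 (PPP1R15A), and for K against L from -0.18 to 0.15 (PPP1R15A) and -0.27 to 0.33 (CEBPB).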

Other observations

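Outside the stress response, 16 erythroid genes of K562 cells were compared between sgGal4 and the average of the 4 sgHS2 groups (limma). Of these, 2 rose, the erythroid regulator KLF1 and the embryonic globin HBZ, and 2 fell, HBE1 and HBG2, where 1.78% of all genes tested were called higher and 1.48% lower. KLF1 had a log2 difference of 0.92 (adjusted p = 0.00861, and between 0.00436 and 0.112 in the alternatives), a call lost without sgGal4 replicate 1 (0.112). HBZ had a log2 difference of 0.51 (adjusted p = 0.0252, and between 0.00617 and 0.244 in the alternatives), a call kept in 8 of 16 alternatives and lost under both other scalings (0.0894 and 0.100) and without sgGal4 replicate 1 (0.0896), sgGal4 replicate 2 (0.131), LK replicate 2 (0.0568) or KL replicate 2 (0.0562), with no filter on low values (0.120) and without a variance trend (0.244). HBZ was at 1034 and 940 TPM with sgGal4 and 799.9 and 829 TPM in the libraries labelled LK, so not every group was above sgGal4. The call of HBG2 was lost without a variance trend (0.0666). Of 7 genes of the target locus and the effectors, 1 rose, ZNF10, and 2 fell, HBE1 and HBG2. Of the 13 mitochondrially encoded genes, 1 rose, MT-ND6, and 6 fell, 2 of 13 with median-of-ratios scaling, 0 with no filter on low values, 0 without a variance trend, 3 without sgGal4 replicate 1, 10 without sgGal4 replicate 2, and 3 or 4 without any 1 sgHS2 library. The call of MT-ND6 was lost with no filter on low values (0.0542) and without a variance trend (0.148). Of the 9 tested markers of other cells, limma called 0, with 3 lower and 0 higher at an unadjusted p under 0.05. These were CD3D (log2 difference -1.89, adjusted p = 0.0792, range 0.0261 to 0.314), called lower with the replicate block, without L replicate 1 (0.0261) and without KL replicate 1, and KRT18 (-0.40, adjusted p = 0.132, range 0.0264 to 0.556) and KRT8 (-0.51, adjusted p = 0.158, range 0.0495 to 0.699), called lower with the mitochondrial genes removed. The part of these markers in the other results was not tested.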
